A study of Sus scrofa with 12 samples.

Results

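Within Polish Large White pigs, 2 loin muscle libraries titled high MM were set against 2 titled low MM, and the genes and cut positions listed in both libraries of a side and in neither of the other were collected. This choice gave 21 target genes of the 543 listed in any of the 4 libraries, 3 on the high side and 18 on the low side. It also gave 22 cuts by named miRNAs of the 492 listed, 2 on the high side and 20 on the low side. A target is a gene named in a row of a library's table, and a cut is a miRNA paired with a chromosome position, the sum of the listed window start and cleavage position. Positions are those of the tables, whose genome build is not stated. Listings were compared and not abundances, because the sides differ in scaling factor.

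The libraries come from parallel analysis of RNA ends (PARE, also called degradome sequencing), which reads the 5′ ends of cleaved, uncapped transcripts. All animals were female and kept under the same feeding and housing, were slaughtered at 100 ± 2 kg, and are recorded at day 180. The low MM animals (PLW1 and PLW2, replicates 1 and 2) are labelled with a light shear force and the high MM animals (PLW5 and PLW7, replicates 1 and 2) with a heavy shear force. The labels leave MM unexplained, the title of the series mentions muscle mass, and no treatment or transgene is labelled. The labels give 1 library per code and do not say how the animals were related, so a p-value here measures the spread between these samples alone. The series holds 12 such libraries, of which the 8 Hampshire and Pietrain libraries took no part in choosing the members.

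A miRNA guides an Argonaute protein to a partly complementary transcript. In animals this mostly leads to translational block and decay, while cutting of the transcript itself is thought to need close to full pairing. The program PAREsnip, which made the tables, looks for small RNAs whose pairing would place a cut exactly at a degradome end. It gives each pairing a category, where 0 marks an end that is the only maximum of the searched sequence and 4 an end seen once. Its alignment score counts mispairs, from 0 for full pairing up to 4.5 in these tables. In loin, a largely fast-twitch glycolytic muscle, the transcripts most exposed to such a survey are those of the contractile apparatus, of energy metabolism and of the mitochondrial genome.

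Table size and scaling factor differed between the sides before any gene was considered. The tables held 2296 and 1120 rows in low MM replicates 1 and 2, and 916 and 699 in high MM replicates 1 and 2. Scaling factors fall into a class under 0.15, called deeper here, and a higher class, called shallower. Reading a low factor as more sequencing depth is an assumption, since the tables state neither depth nor the meaning of the factor. All rows of both high MM libraries were of the shallower class, with factors of 0.351 and 0.360. All rows of low MM replicate 2 were of the deeper class (0.0429), while low MM replicate 1 held 1201 deeper rows (0.0365) and 1095 shallower rows (0.247). Factor class and MM group therefore cannot be told apart over the 4 libraries, and a gene missing from a table is unlisted, not measured at 0.

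Targets numbered 213 and 168 in the low MM libraries and 99 and 134 in the high MM libraries. The groups did not overlap, at 190.5 ± 31.8 and 116.5 ± 24.7 (SD, n = 2 each), and the difference of -74 gave p = 0.333 by a two-sided exact permutation test over 6 relabellings. No smaller p can be reached with 2 libraries against 2. Named miRNA cuts numbered 282 and 104 at low MM and 119 and 38 at high MM, and here the groups overlapped (193 ± 126 against 78.5 ± 57.3, SD, n = 2 each; exact permutation p = 0.667). With low MM replicate 1 counted by its shallower rows alone, the difference in targets shrank to -26 (exact permutation p = 0.667). With shallower rows only, and thus without low MM replicate 2, it was -0.5 (exact permutation p = 1).

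The share of cuts in categories 0 and 1, the strongest evidence, was 16.7% (95% Wilson interval 12.8 to 21.5) and 23.1% (16.0 to 32.0) at low MM. At high MM it was 6.72% (3.45 to 12.7) and 13.2% (5.75 to 27.3). The groups did not overlap, with means of 19.9% ± 4.53 and 9.94% ± 4.55 (SD, n = 2 each), with p = 0.333 in the two-sided exact permutation test. The intervals cover counting error only. Set against the shallower rows of low MM replicate 1 alone, without low MM replicate 2, the difference turned from -9.93 to 0.594 percentage points.

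**Figure D1:**
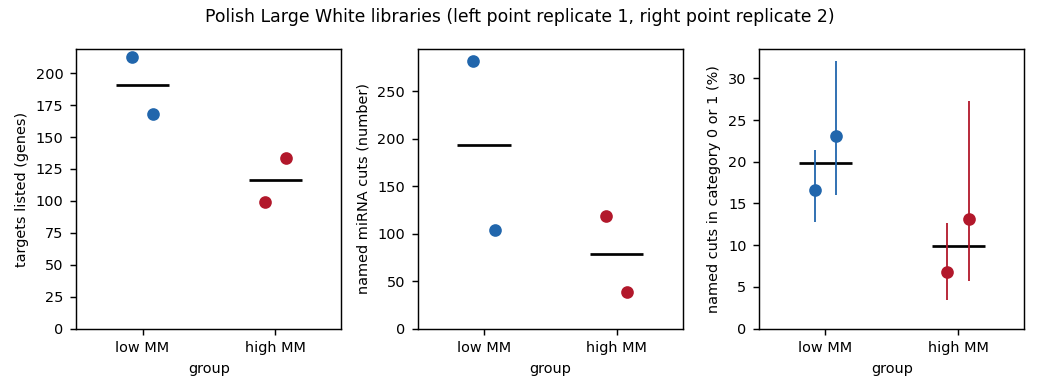
Targets listed (left), named miRNA cuts (middle) and the percentage of named cuts in category 0 or 1 (right) in each Polish Large White library; points are libraries, black bars are group means of 2 libraries, and vertical lines on the right are 95% Wilson intervals. Low and high MM did not overlap in targets (168 and 213 against 99 and 134) or in the category share, and overlapped in cuts.

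Few listings recurred between any of the libraries. Of the 543 targets, 486 (89.5%) were listed in a single library, 47 in 2, 6 in 3 and 4 in all 4. The low MM pair shared 26 targets, which is 12.2% of replicate 1 and 15.5% of replicate 2. The high MM pair shared 9, which is 9.09% and 6.72%. Pairs of libraries from different sides shared 9 to 15. Of the 492 cuts, the low MM pair shared 26 and the high MM pair 7, and pairs from different sides shared 5 to 11.

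The members are described from here on, and since the listings in these 4 libraries chose them, those listings carry no test. On the high side stood 3 targets, 0.552% of the 543. SMIM8 (ENSSSCG00000004300), a small integral membrane protein, and GJB7 (ENSSSCG00000033562), a connexin of gap junctions, are named at the same windows of chromosome 1, SMIM8 on strand 1 and GJB7 on strand -1. In high MM replicate 1 the pair was listed once, with miR-4331-5p at position 55763334, in category 3. That fragment matched 1783 positions, so its place is uncertain. In high MM replicate 2 the pair was listed with an unnamed small RNA at position 55763296, 38 bases away, in category 2, from a fragment that matched 85 positions. Both genes therefore rest on the same windows, and on different RNAs in the 2 libraries.

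The third target of the high side was ENSSSCG00000036671 on chromosome 1, for which no symbol was found. High MM replicate 1 paired it with miR-9 at position 39431460, in category 0, with a fragment abundance of 4 over 28 matching positions. High MM replicate 2 paired it with miR-122, known as the abundant miRNA of liver, at positions 39465104 and 39465105, in category 4, with an abundance of 1 over 17 matching positions. The cuts of the 2 libraries lie 33644 and 33645 bases apart. None of the 3 targets of the high side shared a named cut between its libraries.

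The 2 cuts of the high side, 0.407% of the 492, both belonged to miR-769-5p and both lay in ENO3, the muscle-specific enolase of glycolysis. They stand at positions 51958486 and 51958671 of chromosome 12, 185 bases apart, and ENO3 is named on strand -1. At position 51958486 the gene was named in 23 rows of high MM replicate 1 and 15 rows of replicate 2. At position 51958671 it was named in 5 rows and 2 rows. Each of these rows was in category 4 with an abundance of 1, an alignment score of 4.5, and a fragment matching 57 positions in replicate 1 and 59 in replicate 2. The 2 cuts thus share their fragment values in each library and may not be separate measurements.

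ENO3 itself is no member, because low MM replicate 1 also listed it. There the partner was miR-95, at positions 51958763 and 51958932, in category 2 with an abundance of 3. The enolase transcript was thus listed on both sides, with different miRNAs and at positions 92 to 446 bases apart. When low MM replicate 1 was reduced to its shallower rows, ENO3 joined the high side as a target, since its miR-95 rows are all of the deeper class.

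On the low side stood 18 targets, 3.31% of the 543. On the gene lists stood 3 of them, MYLK2 (fast-fibre contractile), COL3A1 (extracellular matrix) and COX7A1 (oxidative metabolism). Others were GSN, CAP2, ATP1B4, ANKRD13B, ASB12, C12orf45, WDR33, BOD1, PCNP, PM20D2, YAE1, ZNF211, LRRC17 and ENSSSCG00000037571. For 11 of the 18 the same named cut was listed in both low MM libraries, and for 7 it was not. Unnamed small RNAs, whose numbers hold within a library only, were involved in 7. Best evidence of category 0 or 1 was reached by 3.

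**Figure D2:**
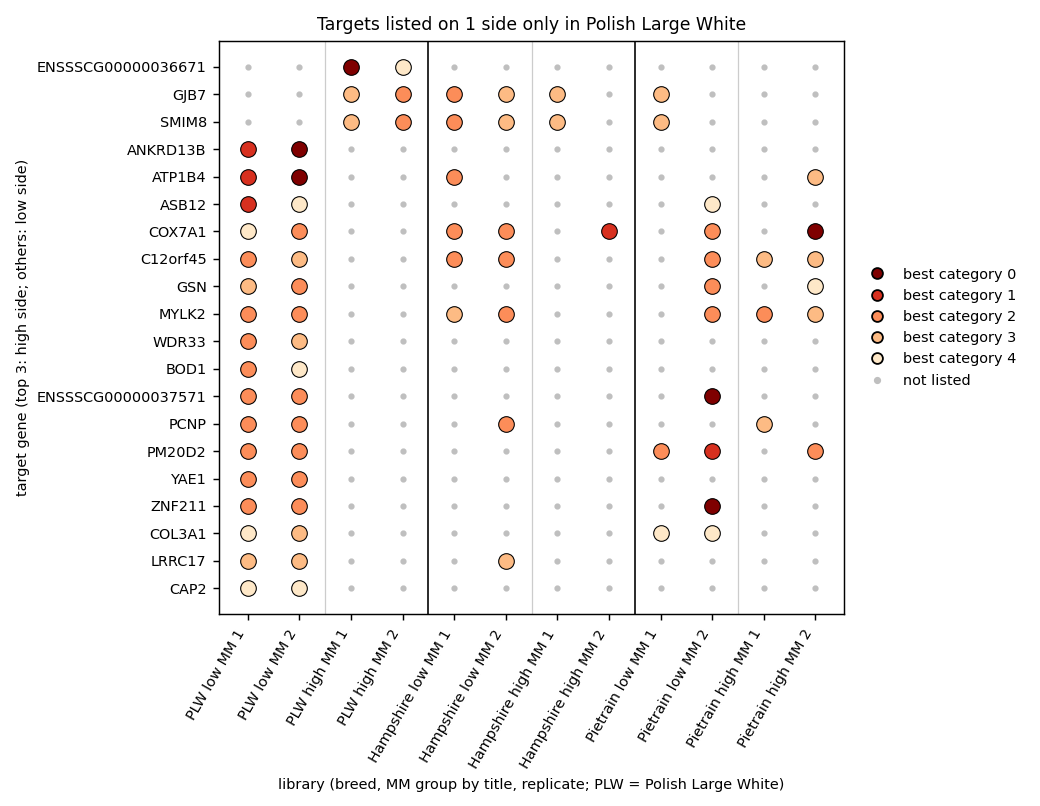
Listing of member targets (rows) in the 12 libraries (columns); a filled circle marks a listed target, darker with stronger evidence (category 0 strongest, 4 weakest), and a small grey dot a target that is not listed. The top 3 rows are the high side, and 5 rows of the low side (ANKRD13B, WDR33, BOD1, YAE1 and CAP2) have no filled circle outside Polish Large White.

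ATP1B4 (ENSSSCG00000012606) showed the strongest repeated evidence. It encodes a relative of the sodium pump's beta subunits that in mammals sits in the nuclear envelope of muscle. Both low MM libraries paired it with miR-378, a miRNA abundant in muscle, at position 98534468 of chromosome X. Replicate 1 named the gene in 3 rows, all category 1, and replicate 2 in 4 rows of categories 0 and 1. The fragment abundance was 2 in both, over 6 and 5 matching positions, and the alignment score of 2.5 was the lowest among the 22 member cuts. Neither high MM library listed the gene, although high MM replicate 1 listed miR-378 at other positions.

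ANKRD13B (ENSSSCG00000017793), an ankyrin repeat protein that binds ubiquitin chains, was listed with different cuts. Replicate 1 gave miR-339-5p at position 45799615 of chromosome 12, in category 1, with an abundance of 2 and a fragment that matched 1 position. Replicate 2 gave miR-574-3p at position 45806298, in category 0, with an abundance of 20 over 5 positions. The 2 cuts are 6683 bases apart, so no single cut of ANKRD13B recurred. ASB12, which recruits substrates to a cullin ubiquitin ligase and lies on chromosome X, was listed through an unnamed small RNA in replicate 1 (category 1, position 50877882) and through an RNA listed as NA/miR-1983 in replicate 2 (category 4, position 50877207). These cuts are 675 bases apart. In replicate 1, ASB12 and ATP1B4 had the same abundance of 2 over 6 matching positions, so they may not be separate measurements there.

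MYLK2 (ENSSSCG00000007231), the skeletal myosin light chain kinase, was paired with miR-4331-5p at position 35511064 of chromosome 17 in both low MM libraries. The rows naming it were in category 2, with abundances of 180 and 580, and their fragments matched 307 and 256 positions. Replicate 2 also listed it with an unnamed RNA at position 35507229. GSN (ENSSSCG00000037508), gelsolin, which severs actin filaments under calcium control, was paired with miR-99b at positions 261360362 and 261362132 of chromosome 1 in both libraries. Both cuts were in category 3 in replicate 1 (abundance 2, 22 matching positions) and in category 2 in replicate 2 (abundance 4, 6 positions). They lie 1770 bases apart and have the same abundance and number of matches in each library, so they may not be separate measurements.

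CAP2 (ENSSSCG00000001068), an actin regulator enriched in striated muscle, was paired with miR-7 at position 13350407 of chromosome 7. It was named in 10 rows of replicate 1 and 19 rows of replicate 2, all in category 4 with an abundance of 1, over 24 and 29 matching positions. COL3A1 (ENSSSCG00000016034), the chain of fibrillar collagen III, was paired with miR-769-5p at position 93588037 of chromosome 15 in both libraries. Rows naming the gene were in category 4 (abundance 1, 13 positions) in replicate 1 and in category 3 (abundance 2, 9 positions) in replicate 2. A second cut of the same miRNA at position 93589005, 968 bases away, was listed in both libraries, but the gene was named there in replicate 2 only. Both cuts had an abundance of 2 over 9 positions in replicate 2. In replicate 1 both had rows with an abundance of 2 over 13 positions, so the cuts may not be separate measurements. miR-769-5p was itself listed in all 4 libraries, on the high side at ENO3 and on the low side at COL3A1.

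COX7A1 (ENSSSCG00000037792) encodes the muscle isoform of a subunit of cytochrome c oxidase. Replicate 1 paired it with miR-92b-3p at position 45519295 of chromosome 6, in 10 rows of category 4. Replicate 2 paired it with miR-338-5p at positions 45519354 (17 rows, categories 3 and 4) and 45519706 (11 rows, categories 2 and 3). The first 2 of these positions are 59 bases apart, and no cut recurred. A further row of replicate 2 gives the same gene identifier to a position 343094 bases from the nearest of the others.

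BOD1, needed for chromosome biorientation in mitosis, was paired with miR-493-5p at position 50738575 of chromosome 16 in both libraries, in category 2 (abundance 5, 12 positions) and category 4 (abundance 1, 6 positions). Another 5 targets were listed through miR-4331-5p alone. YAE1, a factor in iron-sulfur protein assembly, was listed at position 54657041 of chromosome 18, in category 2 with an abundance of 20 in both libraries and fragments of 4 and 2 matching positions. PM20D2, a dipeptidase, stood at position 57218020 of chromosome 1 (up to 27 and 11 matching positions), and PCNP, a nuclear protein, at 157486317 of chromosome 13 (up to 263 and 200). ZNF211, a zinc finger gene, and ENSSSCG00000037571 are named on opposite strands at position 62205717 of chromosome 6 (9 and 10 matching positions), and count as 1 event.

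Another 3 targets shared no named cut between the libraries. C12orf45, a factor in assembly of small nucleolar RNPs, was listed with miR-4331-5p at position 79563057 of chromosome 5 in replicate 1 (up to 263 matching positions) and with an unnamed RNA 1731 bases away in replicate 2. WDR33, a subunit of the machinery that cleaves and polyadenylates messenger RNA, was listed with miR-4331-5p at 59580220 of chromosome 15 in replicate 1 (up to 309 matching positions) and with an unnamed RNA 20738 bases away in replicate 2. LRRC17, a leucine-rich repeat protein, was listed with unnamed RNAs alone, 3537 bases apart and both in category 3. In replicate 1, C12orf45 and PCNP had the same abundances (160 and 1300) and numbers of matching positions (260.3 and 263). In replicate 2, LRRC17 and WDR33 had the same abundance of 60 over 73.6 matching positions. The targets of each pair may therefore not be separate measurements there.

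Positions ran along strand 1 in the member targets where this could be checked. Within a cut, start plus cleavage position is constant by definition, so the rows of a gene were compared. There, start plus cleavage position took fewer values than there were rows, while end minus cleavage position took as many values as rows. The check could not tell for, among others, GJB7, SMIM8, C12orf45, WDR33, PCNP, PM20D2, YAE1 and LRRC17. In each of these, both quantities took 2 values. Of the 18 targets of the low side, 11 are named on strand 1 and 7 on strand -1, and of the 3 on the high side 2 and 1. For genes named on strand -1 (among them ASB12, COX7A1, C12orf45, PCNP, YAE1, ZNF211 and GJB7, and the non-member ENO3), the listing does not establish that the transcript itself was paired and cut.

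The 20 cuts of the low side, 4.07% of the 492, fall on 15 positions and involve 12 miRNAs. The let-7 family contributed 6, miR-4331-5p 7, and the remaining 7 came from miR-99b (2), miR-769-5p (2), miR-378, miR-493-5p and miR-7. A gene was named at 19 of them. The cut with no gene, of miR-4331-5p at position 21074978 of chromosome 17, has the same abundances and matching positions as the one in PM20D2. ATP2A1, the calcium pump of fast fibres, carried a low-side cut of miR-4331-5p at position 18558732 of chromosome 3 (abundances 40 and 20, 23 and 10 matching positions). The gene is no member, because high MM replicate 2 listed it with the same miRNA at position 18564131, from a fragment of 1850 matching positions.

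**Figure D3:**
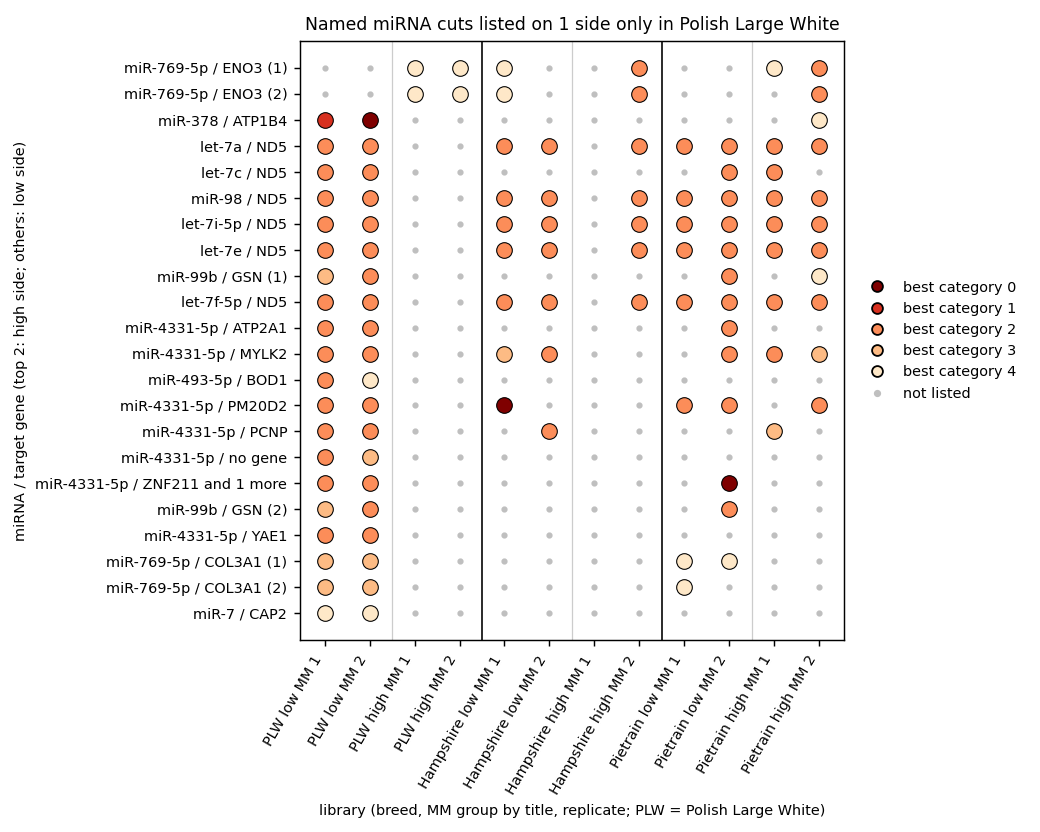
Listing of the 22 member cuts (rows, miRNA and gene; numbers in brackets tell apart cuts of the same pair) in the 12 libraries (columns), with circles shaded by the best category of any row at the cut. The 6 let-7 family cuts in ND5 are listed in other breeds too, and the cuts in BOD1, YAE1 and CAP2 and the cut with no gene are listed in none of them.

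The 6 let-7 family cuts (let-7a, let-7c, let-7e, let-7f-5p, let-7i-5p and miR-98) share position 14460 of the mitochondrial genome, in ND5, a subunit of respiratory complex I that the mitochondrion encodes. Members of this conserved family share their seed, the stretch that pairs first with a target. In low MM replicate 1 the cut was in category 2 with abundances of 7 in shallower rows and 43 in deeper rows, over 59 matching positions. In low MM replicate 2 it was in category 2 with an abundance of 91 over 63 matching positions. Alignment scores were 3 for let-7a, let-7c, let-7i-5p and miR-98, and 4 for let-7e and let-7f-5p. Position 14460 was listed in neither high MM library with any small RNA, and the 6 cuts are 1 event.

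ND5 as a target was nevertheless listed in all 4 libraries. High MM replicates 1 and 2 listed it with miR-155-5p at position 14725, in 52 and 47 rows of category 4 with an abundance of 1. Low MM replicate 1 listed that cut in 34 rows. Across the series, position 14460 was listed in 9 of the 12 libraries, all 6 titled low and 3 of the 6 titled high. These counts include the 4 libraries whose listings chose the position. In the 8 libraries of the other breeds, let-7a was listed there in 7, of which 4 were titled low and 3 high. Of the 5 libraries with shallower rows alone, 2 listed the position (Hampshire high MM replicate 2 and Pietrain high MM replicate 1), each with an abundance of 2. In Polish Large White low MM replicate 1 it was held by 243 shallower rows, whose factor of 0.247 lies below the 0.351 and 0.360 of the high MM libraries. The part of depth in the listing was not tested.

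Named miRNAs were also compared by listing. Low MM replicates 1 and 2 listed 57 and 40 of them and high MM replicates 1 and 2 listed 25 and 19, so the lists differed in length. Of the 87 listed, 13 (14.9%) were in both low MM libraries and neither high MM library: let-7a, let-7c, let-7f-5p, let-7i-5p, miR-125a, miR-182, miR-23a, miR-27b-3p, miR-500, miR-574-3p, miR-660, miR-7 and miR-99b. Only miR-1468 (1.15%) had the opposite listing. In all 4 libraries stood miR-155-5p, miR-206, miR-4331-5p, miR-499-5p and miR-769-5p, of which miR-206 and miR-499-5p are known muscle miRNAs. For 7 of the 20 low-side cuts the miRNA was listed in neither high MM library, for 4 in 1 and for 9 in both. Where the miRNA was listed in both, its listing at high MM was at other positions.

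As a share of named cuts, the let-7 family took 3.19% and 7.69% at low MM and 2.52% and 0% at high MM. That difference of -4.18 percentage points is a description with no test, because 7 of 9 and 6 of 8 let-7 cuts at low MM lie at the ND5 position that the rule selected. Outside it the family had 2 and 2 cuts at low MM and 3 and 0 at high MM, and the groups overlapped. With 0 of 38 cuts in high MM replicate 2, the Wilson interval reaches 9.18%. Families of muscle miRNAs accounted for 2.84%, 5.77%, 4.20% and 5.26% in low MM replicates 1 and 2 and high MM replicates 1 and 2 (two-sided exact permutation p = 1), so the groups overlapped. With categories 0 to 2 alone the muscle difference rose from 0.429 to 9.47 percentage points and the groups did not overlap (exact permutation p = 0.333). Before that filter the muscle families had 8 and 6 cuts at low MM and 5 and 2 at high MM, so this separation rests on few cuts. miR-4331-5p, a pig miRNA, took 31.2% and 48.1% at low MM and 39.5% and 44.7% at high MM (exact permutation p = 1), and again the groups overlapped. The directions of the muscle miRNA and miR-4331 shares turned when low MM replicate 1 or high MM replicate 2 was left out. Benjamini-Hochberg adjusted p was 1 for all 10 families by the exact permutation test, where the let-7 value is no test for the reason given above.

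Within each group, 1 library stood apart by a single miRNA. In low MM replicate 1, miR-145-5p made up 99 of 282 cuts (35.1%), and in the other 3 libraries it had 0. Of its 200 rows, 168 had a fragment matching 135 positions. In high MM replicate 1, miR-432-5p made up 43 of 119 cuts (36.1%), from fragments of a median of 1309 matching positions, against 1, 0 and 0 cuts in low MM replicates 1 and 2 and high MM replicate 2. Without miR-145-5p, low MM replicate 1 held 183 named cuts in place of 282, and the low side kept its 20 cuts.

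**Figure D4:**
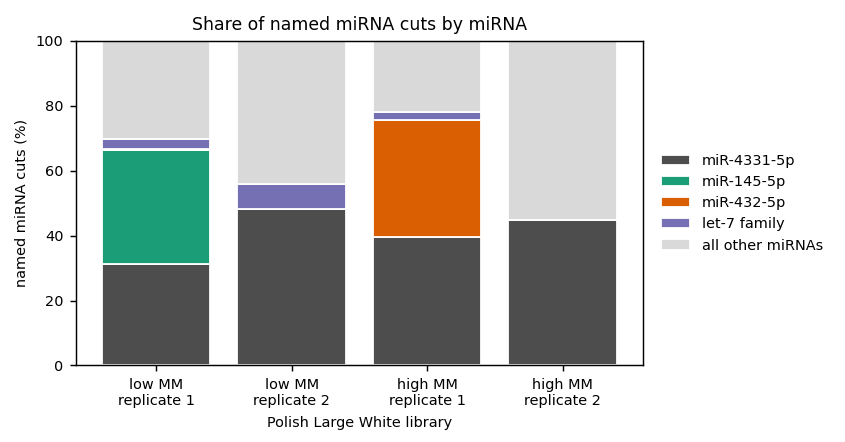
Percentage of named miRNA cuts by miRNA in each Polish Large White library, with bars adding up to 100%. miR-4331-5p took 31.2% to 48.1% in every library, while miR-145-5p (35.1%) and miR-432-5p (36.1%) were large in 1 library each.

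The number of genome positions that a fragment matches bears on where a cut is placed, and the rule made no use of it. The median over the 20 low-side cuts, each by its largest value, was 27, beside 135 over all 492 cuts and 283 over the 18 non-member cuts that also recurred in 2 or more of the 4 libraries. Fragments matching at most 100 positions carried 18 of the 20 cuts (90%), beside 46.3% of all cuts and 44.4% of the other recurring cuts. Of the 492 cuts, 99 were of miR-145-5p in low MM replicate 1, whose rows had a median of 135 matching positions. Another 43 were of miR-432-5p in high MM replicate 1, with a median of 1309. Both groups count in the values over all cuts. The median alignment score was 4 in all 3 sets. A gene was named for 95% of the low-side cuts and 94.4% of the other recurring cuts, beside 67.3% of all. The mitochondrial genome held 30% of the low-side cuts, all at the ND5 position, beside 16.7% and 2.85%. miR-4331-5p held 35% of the low-side cuts, 61.1% of the other recurring cuts and 36.4% of all cuts. These shares describe the lists, in which cuts that share a fragment count several times.

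**Figure D5:**
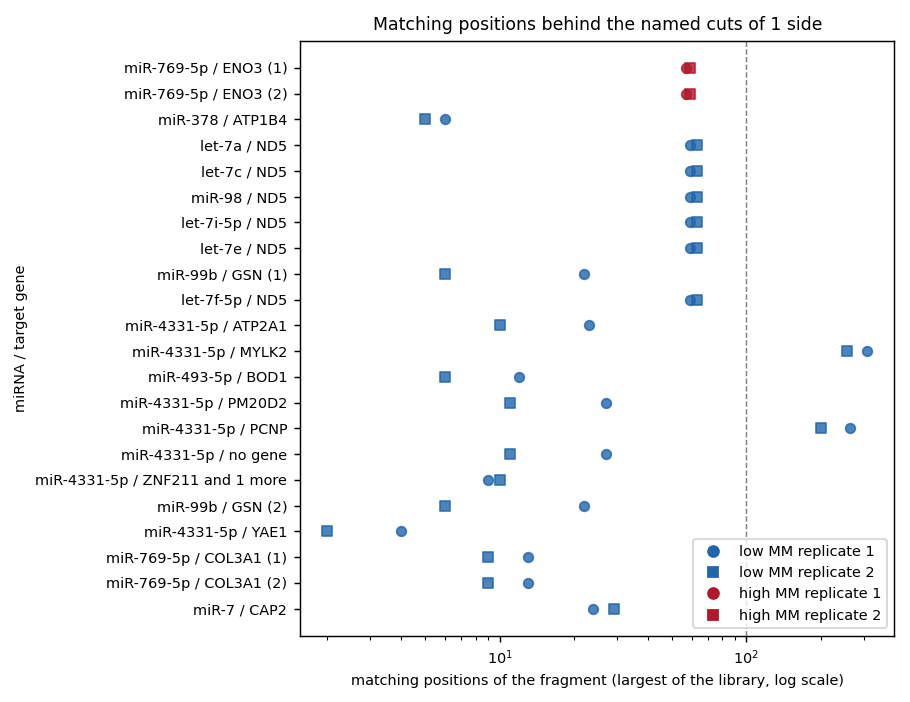
Number of positions matched by the fragment of each member cut (largest value in the library, log scale), for low MM (blue) and high MM (red) replicates 1 (circles) and 2 (squares); the dashed line marks 100 positions. The cuts in MYLK2 and PCNP lie beyond the line in both low MM libraries, and the cut in YAE1 has the fewest, 4 and 2.

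The 8 libraries of the other breeds, which played no part in choosing the members, were then read. Of the 18 low-side targets 13 (72.2%) were listed in at least 1 of them, beside 28 of the 36 non-member targets that likewise recurred in 2 or more Polish Large White libraries (77.8%). Of the 486 targets found in a single library 152 (31.3%) were listed elsewhere. The share of the low side was thus near that of other recurring targets. ANKRD13B, WDR33, BOD1, YAE1 and CAP2 were listed in none. COX7A1, C12orf45 and MYLK2 were each listed in 5 of the 8, PM20D2 in 3, and ATP1B4, GSN, PCNP and COL3A1 in 2. ASB12, ZNF211, ENSSSCG00000037571 and LRRC17 were among those listed in 1. The 13 targets had 21 listings in libraries titled low and 10 in libraries titled high, with more low than high listings for 10 targets and as many of each for 3. All 543 targets had 248 and 163 such listings, with more low for 112, more high for 51 and as many of each for 32. The 36 recurring non-member targets had 61 and 49, with more low for 15, more high for 6 and as many of each for 7. Every library titled low among the 8 held deeper rows. Of those titled high, only Pietrain high MM replicate 2 did, and the part of factor class was not tested.

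The tab names of the workbook exchange high and low for the 4 Pietrain libraries. Read by the tabs, the 13 targets had 18 low and 13 high listings, with more low listings for 6, more high listings for 6 and as many of each for 1. The direction in the other breeds therefore depended on that reading. The miR-769-5p cut in COL3A1 at position 93588037 shows this: it was listed in both Pietrain libraries titled low, which the tabs name high. The titles and tabs of the Polish Large White libraries do not differ.

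Of the 20 low-side cuts, 16 (80%) were listed in at least 1 library of another breed, beside 13 of the 18 other recurring cuts (72.2%) and 97 of the 452 found in a single library (21.5%). The exceptions were the cuts in BOD1, YAE1 and CAP2 and the cut with no gene. Among the 16 were the 6 let-7 family cuts at the ND5 position, which are 1 event, so the 80% counts that event 6 times. By position, the 20 cuts are 15. The miR-378 cut in ATP1B4 was listed in 1 other library, Pietrain high MM replicate 2, in category 4. On the high side, SMIM8 and GJB7 were each listed in both Hampshire low MM libraries, Hampshire high MM replicate 1 and Pietrain low MM replicate 1, so 3 of their 4 other listings were at low MM by title, and 2 of 4 by the tabs. ENSSSCG00000036671 was listed in no other breed. The ENO3 cuts of miR-769-5p were listed in 4 and 3 other libraries, of which 1 each was low MM by title, and 3 and 2 by the tabs.

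The same rule applied within the other breeds gave counts of a similar size in Hampshire and smaller ones in Pietrain. In Hampshire, 3 of 597 targets (0.503%) were on the high side and 18 (3.02%) on the low side, with 2 (0.575%) and 17 (4.89%) of 348 cuts. In Pietrain, grouped by title, 2 of 596 targets (0.336%) were on the high side and 8 (1.34%) on the low side, with 3 (0.649%) and 4 (0.866%) of 462 cuts. Read by the tabs, the Pietrain sides exchange. The high side then has 8 targets and 4 cuts, and the low side 2 targets and 3 cuts. In Hampshire, both high MM libraries held shallower rows alone, with factors of 0.407 and 0.417. Both Hampshire low MM libraries held deeper rows as well, 1107 and 1612. Factor class thus went with MM group there too. The differences between breeds and the part of factor class in these counts were not tested.

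Just outside the rule stood targets listed in both libraries of a side and 1 of the other. On the high side these were ENO3 and CYTB, the mitochondrial cytochrome b of complex III. On the low side they were MYOM2 (a protein of the M-band), ATP2A1, FKBP5 (a co-chaperone) and COX3 (a mitochondrial subunit of cytochrome c oxidase). Cuts in the same place were those of miR-155-5p in ND5 and miR-206 in CYTB on the high side, and those of miR-378 in CA3, miR-4331-5p in FKBP5 and miR-133a-3p in COX3 on the low side. The miR-133a-3p cut in COX3, at mitochondrial position 10259, had 49 and 11 rows at low MM and 52 in high MM replicate 1, in category 3 throughout.

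The gene lists drawn up for muscle were thinly covered. Of 13 fast-fibre contractile genes 5 were listed in any of the 4 libraries, and MYLK2 was the only member. Of 10 slow-fibre genes 1 was listed, of 21 sarcomere and Z-disc genes 8, of 23 glycolysis and glycogen genes 6, and of 18 calcium handling genes 4, with no member among them. Of 13 mitochondrially encoded genes 4 were listed (ND5, COX3, CYTB and COX1), with 3 in each library. Of 29 nuclear genes of oxidative metabolism 5 were listed, and COX7A1 was the only member.

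Of 21 extracellular matrix genes 2 were listed, COL3A1 in both low MM libraries and LAMA2 in low MM replicate 1. The 3 of 17 translation genes and the 1 slow-fibre gene were likewise listed at low MM alone, as were 319 of all 543 targets (58.7%). Stress genes stood at 3 of 20, protein breakdown at 3 of 20, and myogenic regulation and growth at 2 of 28, with no member. Of 20 markers of other cell types 2 were listed, ALAS2 of erythroid cells in low MM replicate 2 and B2M in high MM replicate 2. In these bulk samples a smaller number of cells of a type and less RNA per cell cannot be told apart. No list held a gene of the high side.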

How the data were processed

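Loin RNA (integrity number above 7) went into PARE libraries, per the labels' protocols. The submitters' processing notes list CASAVA 1.8.2 and FastQC. The aligner, genome build, annotation, read depth and row filter remain not given in the sources used here. PAREsnip wrote the tables, per the labels. The authors deposited, per row, a category score (0 to 4), an alignment score and a fragment abundance. Abundances hold many multiples of 20, so they were treated as a score. Each row has a deposited p-value with 2 decimals. Weighted and normalized abundances, also deposited, are a signal: the first divides abundance by the number of matching positions and the second multiplies that by a scaling factor. The number of matching positions was computed as abundance over weighted abundance. It is not always whole.

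The analysis ran in Python 3.11.15 with numpy 2.4.6, pandas 2.3.3, scipy 1.17.1 (Wilson intervals) and matplotlib 3.10.9 (plots). Gene identifiers got symbols from the files or the reference table. Groups followed the titles, and replicate numbers come from the labels. Values per library were compared by two-sided exact permutation tests. The listing rule was tested on simulated data. The permutation test was run only on made-up values with the groups fully apart, where p is fixed at its smallest. Member counts carry no test. Members were named, since each side had fewer than 30, except 1 target that is not reported here. Up to 5 genes or cuts a side just outside the rule were named as well. The members, gene lists and miRNA lists were chosen with earlier results of these data known. Alternatives were a stricter category or p-value, leaving out miR-4331-5p or each library, other units of counting and a replicate block. Added after seeing the data were 2 settings on shallower rows, a limit of 100 matching positions, and leaving out miR-145-5p. The series' design text speaks of chickens, and the sample labels, which say pig, were followed. No miRNA or genome sequence was used here.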

Additional observations from a re-analysis of the deposited data

How the results depend on the processing

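Keeping categories 0 to 2 left 0 targets and 0 cuts on the high side and 12 and 14 on the low side, of which 9 targets were shared with the 18. A deposited p-value of 0.02 or less left 8 targets and 11 cuts on the low side, 1 cut on the high side, and 5 low-side targets listed in other breeds. Without miR-4331-5p there were 1 high-side target, 10 low-side targets, 13 low-side cuts and 7 targets in other breeds. With fragments matching 1 position, no target or cut remained on either side (0 each), and 0 low-side targets in other breeds. With low MM replicate 1 by its shallower rows there were 10 low-side targets, 13 low-side cuts and 8 targets in other breeds. With at most 100 matching positions 1 high-side target remained. With shallower rows only and without low MM replicate 2, listing in 1 low library sufficed, and 98 targets, 93 cuts and 43 targets in other breeds stood on the low side. There the category share turned to 0.594 percentage points.

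The miR-4331 share, high minus low, turned to -4.09 with categories 0 to 2, -11.8 with low MM replicate 1 by shallower rows, -17.7 with shallower rows only, -13.1 with at most 100 positions and -5.97 without miR-145-5p. The muscle miRNA share turned to -0.489 with low MM replicate 1 by shallower rows and -0.338 without miR-145-5p. It rose to 9.47 with categories 0 to 2 and 7.95 with at most 100 positions, and the miR-4331 share to 13.5 with a deposited p-value of 0.02 or less (exact permutation p = 0.333 each). The muscle miRNA shares rest on few cuts, at most 8 in a library before any filter. The causes were not tested.

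Leaving out 1 library at a time, a single library then sufficed on its side. Counts ran from 3 to 110 high-side targets, 20 to 189 low-side targets, 2 to 106 high-side cuts, 20 to 268 low-side cuts and 15 to 72 low-side targets in other breeds. Differences ran from -96.5 to -51.5 targets, from -25.5 cuts (without low MM replicate 1) to -203.5 (without low MM replicate 2), and from -13.1 to -6.71 points in the category share. The let-7 share ran from -6.43 (without low MM replicate 1) to -1.93 (without low MM replicate 2). The muscle miRNA share ran from -1.04 to 1.90 and the miR-4331 share from -5.96 to 10.9 percentage points.

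Same-numbered libraries did not deviate together (r = 0.034 over 543 targets), and the labels tie no number to a litter or day, so they share only a number. With the number as a replicate block, differences were the same (-74 targets, -114.5 cuts, -9.93 points in the category share, -4.18, 0.429 and 2.48 points in the let-7, muscle and miR-4331 shares), with sign-flip p of 0.5, 0.5, 0.5, 0.5, 1 and 1 by an exact permutation test whose smallest p is 0.5. A comparison of shallower rows alone over all 4 libraries was not run, since low MM replicate 2 has none. With 2 libraries a side no p can fall below 0.333, so a p above the threshold says nothing about stability. In all, 93 of the recomputed values kept their direction and call, 34 moved and 12 turned. For tested values the call could not change. The 93 include the target difference of -0.5 with shallower rows only and without low MM replicate 2. They also include the miR-4331 share without miR-4331-5p, whose difference was 0 by construction. The tally is therefore no measure of stability.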
